A study of Mus musculus with 28 samples.

Results

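The cell cycle genes described here were the genes that carry the exact entry "Cell cycle" in the pathway annotation deposited with the expression table, which 154 genes did. The 5 general regulators Ep300, Crebbp, Hdac1, Hdac2 and Tgfb1 were dropped from them, and 149 of the 25301 genes in the table remained. They hold the cyclins and their kinases, the inhibitors of those kinases, the Rb and E2F proteins, the machinery that licenses DNA replication, cohesin, the spindle checkpoint, the DNA damage checkpoint, both ubiquitin ligases of the cycle, and growth signals upstream of it. The rule reads only the annotation and the 5 names, though it was set with earlier results of these data known. Expression was given as FPKM, fragments scaled to gene length and library size, in macrophages that had been sorted by flow cytometry out of the pancreas. The mice were of the C57BL/6J strain and wild type.

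A cell enters the cycle when D-type cyclins with Cdk4 or Cdk6, and then E-type cyclins with Cdk2, phosphorylate Rb proteins and free E2F factors to transcribe the genes of DNA replication. A- and B-type cyclins with Cdk1 then carry the cell through mitosis, while the CIP/KIP and INK4 inhibitors hold the kinases back. Tissue macrophages can divide in place, whereas macrophages that form from incoming monocytes start as cells that are largely out of the cycle.

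The 28 libraries fell into 6 groups. In the caerulein model, the secretagogue caerulein injures the pancreas and the tissue then recovers. Pancreatic macrophages were taken at day 0 (D0, 5 libraries), at day 1 after lactate (D1 AP+Lac, 6 libraries) or phosphate-buffered saline (D1 AP+PBS, 6 libraries), and at day 3 after lactate (D3 AP+Lac, 4 libraries) or PBS (D3 AP+PBS, 4 libraries), and from a group labelled NC (3 libraries). AP is the label for the pancreatitis model. The labels spell out neither what NC stands for nor whether those mice received caerulein, and they give no ages, lactate dose or sorting gate. Whether each library is from a different mouse is not said, and the p-values measure only how far these libraries spread, which may be technical.

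Each library rested on between 33273303 and 41060490 fragments, recovered from the whole-fragment steps of the FPKM values. Of the 149 members, 143 reached 1 FPKM in at least 3 libraries and were tested, a filter that 47.3% of all genes in the table passed. The 6 that did not reach it were Ccna1, Hdac8, Mad1l1, Smc1b, Tgfb2 and Wee2. All 10 macrophage markers examined were tested, and their mean level lay at 7.69 or more on the log2(FPKM + 1) scale in every library. RNA of other cells was also present. The mean level of 21 lymphocyte markers on the same scale was 4.23 to 4.57 in NC, 1.46 to 2.55 in D0, 3.95 to 5.76 in D1 AP+Lac, 3.85 to 5.30 in D1 AP+PBS, 5.12 to 5.97 in D3 AP+Lac and 5.07 to 5.69 in D3 AP+PBS. Lymphocytes divide too, and these levels are given below beside the results they move with. In bulk libraries, fewer cells of a type and less RNA per cell cannot be told apart.

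The comparison of D0 with NC showed the mitotic and replication genes low at day 0 and 2 kinase inhibitors, Cdkn1a and Cdkn2d, high. Of the 143 tested members, 81 were lower in D0 and 15 were higher. Among all 11960 genes tested, 41.4% were lower, 19.7% higher and 61.1% either, and the share of members that were lower was 56.6%. The median log2 fold change was -0.40 over the members and -0.22 over all genes. Differences throughout are on the log2(FPKM + 1) scale, and a gene passed the test at a Benjamini-Hochberg adjusted p of at most 0.05 in limma, adjusted over all genes tested. Median-ratio scaling moved the median of all genes to 0.03, and under it 60 members were lower and 35 higher, against 3530 lower and 4039 higher among all genes.

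All 4 tested members of the group of A and B cyclins with Cdk1 were lower in D0, with a median log2 fold change of -2.42. Ccnb2, a B cyclin that activates Cdk1 at mitosis, was at 1.57, 1.37, 1.22, 1.13 and 0.854 FPKM in the D0 libraries, against 11.9, 11.5 and 11.8 FPKM in the NC libraries. Every D0 library lay well below every NC library, and the difference was -2.52 (SE 0.42, adjusted p = 1.6e-05). Ccna2, which acts in S phase and into mitosis, averaged 1.12 ± 0.293 FPKM in D0 (SD, n = 5) and 10.6 ± 0.956 FPKM in NC (SD, n = 3), a log2 difference of -2.47. Ccnb1 and the mitotic kinase Cdk1 differed by -2.37 and -1.85, with no overlap between the groups for either gene.

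Cdc20, the activator that turns the anaphase-promoting complex on once chromosomes are attached, was at 1.89, 1.47, 1.17, 1.36 and 1.30 FPKM in D0, against 15.8, 13.7 and 14.2 FPKM in NC. The groups were far apart, with a log2 difference of -2.68 (SE 0.52, adjusted p = 0.00011). Of the 11 tested spindle checkpoint genes, 8 were lower and 1 was higher, Mad2l2, which also acts in DNA repair. The kinase Ttk differed by -1.34, the checkpoint proteins Bub1, Bub1b and Mad2l1 by -1.60, -2.07 and -1.78, and the kinetochore protein Ndc80 by -1.74. The mitotic kinase Plk1 differed by -2.33, the kinase Aurkb averaged 2.28 ± 0.441 FPKM in D0 and 12.1 ± 0.943 FPKM in NC (SD, n = 5 and 3), and Fbxo5, which restrains the anaphase-promoting complex until mitosis, by -1.62. Of the 17 tested genes of the complex and its regulators, Cdc20 and Fbxo5 included, 8 were lower and 1 was higher, with a median of -0.19.

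Replication licensing, in which the Mcm2 to Mcm7 helicase is loaded onto origins of replication, had 13 of 20 tested genes lower and none higher. Mcm7 was at 4.73, 4.26, 4.52, 4.58 and 4.13 FPKM in D0, against 25.3, 22.9 and 22.8 FPKM in NC, a log2 difference of -2.18 (SE 0.35, adjusted p = 1e-05). No library of one group reached the other. The remaining helicase subunits differed less, with -1.36 for Mcm2, -1.16 for Mcm3, -0.85 for Mcm4, -1.61 for Mcm5 and -1.53 for Mcm6. Cdc6, a helicase loader, differed by -1.13 and Dbf4, the activator of the Cdc7 kinase, by -1.12. The helicase partner Cdc45 differed by -0.98, a call that was lost without any of the 3 NC libraries or without D0 2, 4 or 5 (adjusted p of 0.0523 to 0.102). Pcna, the sliding clamp of DNA polymerases, did not pass the test at -0.35 (SE 0.22, adjusted p = 0.17), and neither did the loader Cdt1 at 0.11 (SE 0.24, adjusted p = 0.71).

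**Figure D1:**
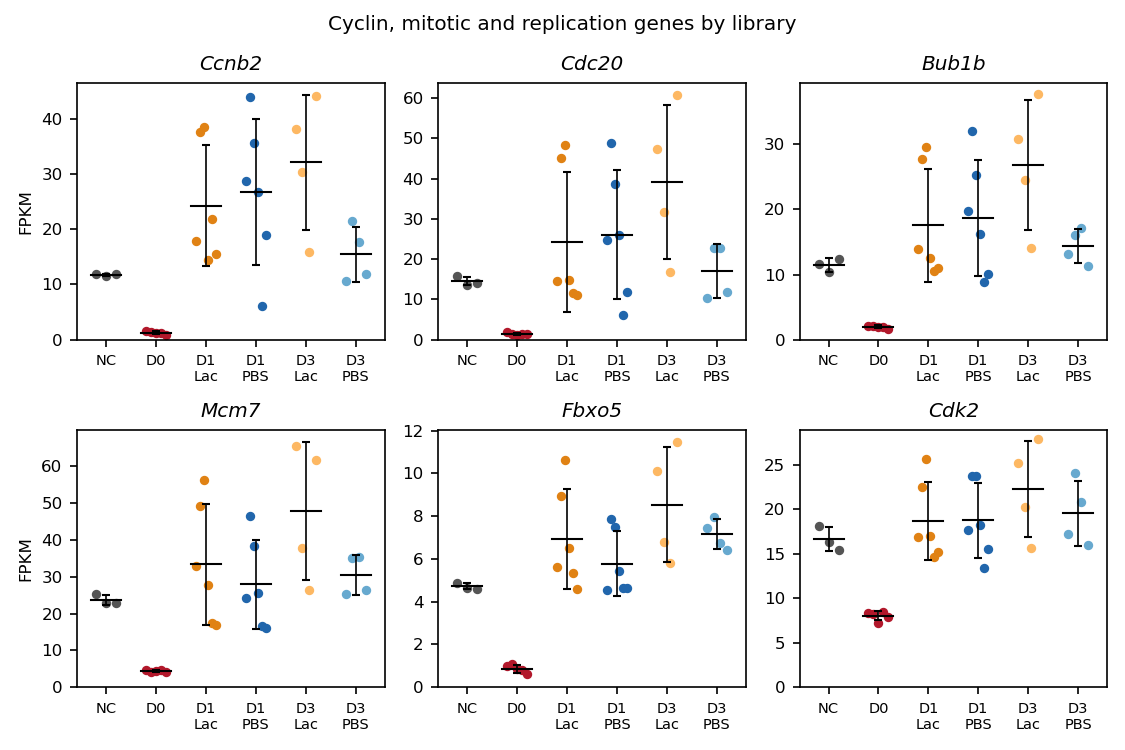
FPKM of Ccnb2, Cdc20, Bub1b, Mcm7, Fbxo5 and Cdk2 in each of the 28 libraries by group, with NC at the left and then D0, D1 AP+Lac, D1 AP+PBS, D3 AP+Lac and D3 AP+PBS; points are libraries, the line is the group mean and bars are the SD. The 5 D0 libraries lie below all others for each gene, as for Cdk2 at 7.19 to 8.43 FPKM, and the later groups spread widely.

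The promoters of 7 genes are printed because they show the letters that many of these genes have in common and 1 gene that was high in D0, Cdkn1a. Each is the 150 bases that end just before the RefSeq start, 5′ to 3′ on the gene's strand, in build GRCm38.p6. Capitals mark matches to CCAAT on either strand, to the cell cycle homology region TTTGAA, to the E2F motifs TTTCCCGC and TTTGGCGC on either strand, and, in Cdkn1a, to the p53 core, which is CATG, any 6 bases and CATG. Cdkn1a has 2 RefSeq starts, and the upstream one is shown. The p53 core was searched after the sequence had been seen. Ccnb1 lies at chr13:100786487-100786636 (minus strand), Ccnb2 at chr9:70421555-70421704 (minus), Cdk1 at chr10:69352913-69353062 (minus), Cdc20 at chr4:118437344-118437493 (minus), Mcm5 at chr8:75109359-75109508 (plus), Mcm6 at chr1:128359706-128359855 (minus) and Cdkn1a at chr17:29090829-29090978 (plus).
Ccnb1: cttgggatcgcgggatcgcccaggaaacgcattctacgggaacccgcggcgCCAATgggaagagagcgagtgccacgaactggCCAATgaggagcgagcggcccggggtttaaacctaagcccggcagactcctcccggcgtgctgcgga
Ccnb2: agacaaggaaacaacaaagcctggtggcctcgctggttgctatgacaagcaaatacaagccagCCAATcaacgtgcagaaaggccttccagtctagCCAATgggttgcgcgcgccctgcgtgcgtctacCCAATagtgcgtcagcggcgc
Cdk1: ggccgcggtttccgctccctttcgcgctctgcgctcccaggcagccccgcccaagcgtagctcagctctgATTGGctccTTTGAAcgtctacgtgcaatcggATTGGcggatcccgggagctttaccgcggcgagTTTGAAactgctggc
Cdc20: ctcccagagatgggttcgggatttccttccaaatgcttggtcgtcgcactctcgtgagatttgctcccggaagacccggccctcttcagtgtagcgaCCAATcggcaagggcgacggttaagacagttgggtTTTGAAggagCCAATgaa
Mcm5: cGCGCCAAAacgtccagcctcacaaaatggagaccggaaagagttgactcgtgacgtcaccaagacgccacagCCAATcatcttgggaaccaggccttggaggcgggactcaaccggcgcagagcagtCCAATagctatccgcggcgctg
Mcm6: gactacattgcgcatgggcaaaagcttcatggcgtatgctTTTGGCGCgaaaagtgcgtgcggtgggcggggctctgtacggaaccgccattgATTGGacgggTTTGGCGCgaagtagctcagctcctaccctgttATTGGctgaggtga
Cdkn1a: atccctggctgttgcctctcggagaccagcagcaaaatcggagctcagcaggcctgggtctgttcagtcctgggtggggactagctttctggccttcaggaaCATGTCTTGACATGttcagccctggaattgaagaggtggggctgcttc

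Each of the 6 printed promoters of genes that were low in D0 held CCAAT more than once. Those of Cdk1 and Cdc20 also held TTTGAA, and those of Mcm5 and Mcm6 an E2F motif. Windows of 250 bases before to 50 after the start were given for 118 of the 149 members and for 26742 genes in all, and every motif was searched on both strands. CCAAT stood more than once in 27.1% of the members' windows and in 12.1% of all windows, and TTTGAA in 22% and 17.9%. An E2F motif stood in 15.3% of members' windows, in 38.9% of those of licensing genes and in 1.65% of all. Among members with a window, TTTGAA was in 33.9% of the 62 that were lower in D0, in 0 of the 13 that were higher and in 10.8% of the 37 that did not pass the test. In the same order, an E2F motif was in 16.1%, 7.69% and 18.9%. CCAAT was in 56.5%, 53.8% and 43.2%, and more than once in 35.5%, 0% and 21.6%. Differences between these classes were not tested. The p53 core was in the window of 1 member, Cdkn1a, and in 0.662% of all windows. A match describes letters in a window and does not show that a factor binds there.

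The kinase inhibitors differed in opposite directions in D0, with 5 of 7 tested lower and 2 higher. Cdkn1a, which encodes p21, a CIP/KIP inhibitor transcribed by p53 among others, was at 499, 385, 333, 418 and 424 FPKM in D0, against 59.6, 84.6 and 52.7 FPKM in NC. Every D0 library lay above every NC library, and the log2 difference was 2.65 (SE 0.26, adjusted p = 7.8e-09). Mdm2, the ubiquitin ligase that degrades p53 and is itself a p53 target, was also higher, at 31.3, 27, 24.6, 25.1 and 28.4 FPKM in D0 and 13.1, 12.5 and 12.6 FPKM in NC. Its difference was 1.04 (SE 0.08, adjusted p = 1.5e-10), again with no overlap. Gadd45g, a stress-induced gene whose product binds Cdk1, was higher by 0.92, and the INK4 inhibitor Cdkn2d by 0.87. Trp53 itself, which encodes p53, was lower, at -0.65 on the same scale.

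The other CIP/KIP inhibitors were low in D0. Cdkn1b, which encodes p27, was at 13.7, 15.1, 12.7, 16.4 and 11.9 FPKM in D0 and 46.2, 36.8 and 41.3 FPKM in NC, a log2 difference of -1.50 (SE 0.13, adjusted p = 5.7e-10). Cdkn1c, which encodes p57 and is imprinted, was at 0.243, 0.335, 0.165, 0.281 and 0.0886 FPKM in D0 and 5.74, 4.75 and 5.78 FPKM in NC. It was below 1 FPKM in every D0 library and in no NC library, and its difference was -2.39 (SE 0.18, adjusted p = 9.1e-11). The INK4 inhibitor Cdkn2c, at 1.35, 1.68, 1.40, 1.42 and 1.15 FPKM in D0 and 10.4, 9.84 and 10.5 FPKM in NC, differed by -2.23 with no overlap. Cdkn2a, whose locus makes both an INK4 inhibitor and ARF, and Cdkn2b differed by -0.71 and -1.10. Both had an adjusted p above 0.05 once NC 1 was left out, 0.0805 for Cdkn2a and 0.0514 for Cdkn2b.

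Ccne1 and Ccne2, the E cyclins, differed by -1.35 and -1.26 and their partner Cdk2 by -0.97 (SE 0.19, adjusted p = 0.00011). With the lymphocyte covariate Ccne1 and Ccne2 changed sign, to 0.35 and 0.17. Of the D cyclin and kinase genes, Ccnd1, Ccnd2, Cdk4 and Cdk6 did not pass the test, at -0.23, -0.26, 0.19 and -0.22, with adjusted p between 0.12 and 0.46, and the difference between the E and D cyclin genes was not tested. Ccnd3 was higher by 0.45, though the lowest D0 library lay within the NC range and the call was lost without any of the 3 NC libraries or without D0 2, 3, 4 or 5 (adjusted p of 0.0567 to 0.211). Of the 10 tested Rb and E2F genes, 5 were lower and 1 was higher: the Rb relative Rbl2 differed by -0.92, the E2F partner Tfdp2 by -1.39 and the activator E2f1 by -0.60, while the repressor E2f4 was higher by 0.58. Rb1 averaged 19.6 FPKM in both groups.

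Checkpoint kinases and cohesin were low as well. In the damage checkpoint and mitotic entry group 14 of 18 tested genes were lower, among them the kinases Wee1 at -1.27 and Pkmyt1 at -1.76, which hold Cdk1 inactive, the phosphatase Cdc25b at -1.88, which activates it, and the damage kinases Atm, Atr, Chek1 and Chek2 at -0.95, -0.80, -0.95 and -0.40. Among the 17 tested genes of cohesin, securin and separase, 13 were lower and none higher. Rad21, a cohesin subunit that all cells use, differed by -0.78, and the S-phase cohesion genes Cdca5 and Esco2 by -1.92 and -1.81. Separase, Espl1, differed by -0.84, whereas securin, Pttg1, did not pass the test at 0.18.

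The genes that were higher in D0 other than inhibitors came mostly from groups with wider roles. The 14-3-3 proteins Ywhag, Ywhae and Ywhab, which bind phosphorylated Cdc25 and many other proteins, were higher by 0.79, 0.62 and 0.38. The phosphatase subunits Ppp2ca and Ppp2r1a were higher by 0.54 and 0.37, Rbx1, the RING subunit of cullin ligases, by 0.72, and Smad3, a transducer of TGF-beta signals, by 0.64. Its partner Smad4 was lower, at -0.57. Myc averaged 11.8 ± 2.56 FPKM in D0 and 21.3 ± 1.45 FPKM in NC (SD, n = 5 and 3), and its call was lost without NC 1, 2 or 3 or without D0 3 (adjusted p of 0.0523 to 0.0864). Without 1 library, E2f4 (without NC 3) and Ppp2r5b (without NC 3) lost their calls as well, with adjusted p of 0.0517 and 0.069.

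**Figure D2:**
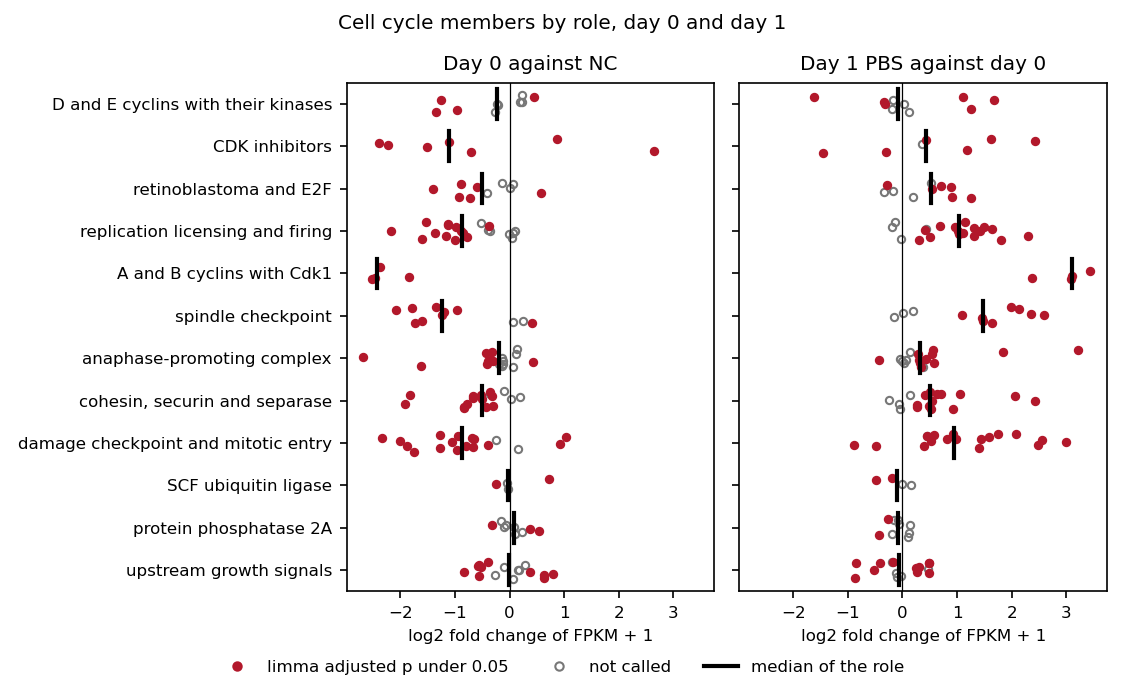
Log2 fold change of each tested member by role, for D0 against NC and for D1 AP+PBS against D0; filled red points passed the test, open points did not, and the bar is the role's median. The cyclin and Cdk1 group sits lowest in D0 at a median of -2.42 and highest at day 1 at 3.10, while the median of the protein phosphatase 2A genes in D0 is 0.07.

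Genes of the cycle outside the annotated set showed the same direction. Of 28 genes for the mitotic spindle, kinetochore and cytokinesis, 27 were lower in D0 and none higher, with a median of -1.96, and the microtubule regulator Stmn1 averaged 5.91 ± 1.61 FPKM in D0 and 48.8 ± 3.23 FPKM in NC (SD, n = 5 and 3). The cytokinesis genes Kif23, Racgap1 and Anln differed by -2.70, -2.37 and -1.65. Of 22 genes for nucleotide and DNA synthesis 18 were lower and none higher, among them thymidine kinase Tk1 at -2.12, the ribonucleotide reductase subunit Rrm2 at -2.75, the primase-polymerase gene Pola1 at -1.64 and the clamp loader gene Rfc5 at -1.26. A further list held 6 genes tied to the complex that represses cycle genes in resting cells, not all of them its subunits. Of these, 4 were lower by small amounts, Lin9 at -0.34, Lin52 at -0.29, Lin54 at -0.34 and Dyrk1a at -0.29.

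Markers of other cells moved in the same comparison. Of 10 B and plasma cell markers, 9 were lower in D0 and 1 was higher, and their summed FPKM was 180.6 to 253.1 in D0, against 518.1 to 608.6 in NC. Of 11 tested T and NK cell markers, 10 were lower, with sums of 10.95 to 46.79 in D0 and 117.2 to 197.3 in NC. No D0 library was at 0 for Ms4a1, Cd3e or Cd4, while the plasma cell receptor Tnfrsf17 was at 0 to 0.108 FPKM in D0 and 5.21 to 6.69 FPKM in NC. All 12 acinar markers were lower, with sums of 351.4 to 665.6 in D0 and 5815 to 9366 in NC, and so were all 7 dendritic markers. Of 7 tested neutrophil markers 5 were higher and 1 lower, with sums of 271.4 to 761.9 in D0 and 99.62 to 225.6 in NC. With the mean lymphocyte marker level as a covariate, 23 of the 96 members that had passed kept their call and direction, and with the acinar level 19. In all 47 members passed under the lymphocyte covariate, 38 of them higher and 9 lower, against 2882 higher and 2368 lower among all 11960 genes. The D0 and NC libraries do not overlap in the lymphocyte level. They do not overlap in the acinar level either, at 3.99 to 4.88 in D0 and 8.26 to 8.94 in NC. Both fits therefore extrapolate between the groups. The members that kept their call under both numbered 17 and included Cdkn1a at 1.77 and 2.32, Mdm2 at 1.22 and 0.99, Cdkn1b at -1.34 and -1.23, Cdkn1c at -2.16 and -1.71, Cdkn2c at -1.58 and -1.44, Ndc80 at -0.92 and -1.08 and Fbxo5 at -0.69 and -1.12, under the lymphocyte and the acinar covariate in turn. The A and B cyclins, Cdk1, Cdc20, Plk1, Aurkb, Bub1b and Mcm7 were not among these 17. Mcm2 to Mcm6 changed sign under the lymphocyte covariate, Mcm2 to 0.78. What share of the low cycle RNA in D0 came from cells other than macrophages was not tested.

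At day 1 after PBS the cycle genes were high again relative to D0. Of the 143 tested members 84 were higher and 18 lower, against 43% and 19.8% of all genes, or 62.9% in either direction, and the median was 0.44 over the members and 0.19 over all genes. Under median-ratio scaling, which moved the median of all genes to -0.04, 65 were higher and 41 lower, against 3625 higher and 4263 lower among all genes. Ccnb2 spanned 6.17 to 44.0 FPKM with a median of 27.8 FPKM in D1 AP+PBS, against 0.854 to 1.57 FPKM in D0. Even the lowest day 1 library exceeded the highest D0 library, and the log2 difference of 3.44 (SE 0.35, adjusted p = 1.2e-08) was the largest among the 143 members. Ccna2, Ccnb1 and Cdk1 were higher by 3.09, 3.12 and 2.37, Cdc20 by 3.21 and Plk1 by 2.99.

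All 8 spindle checkpoint genes that passed the test were higher, Bub1b by 2.60 and Ndc80 by 2.36. In licensing 16 of 20 were higher and none lower. Mcm7 spanned 16.2 to 46.4 FPKM with a median of 24.9 FPKM in D1 AP+PBS, against 4.13 to 4.73 FPKM in D0, a difference of 2.31. Fbxo5 was higher by 1.83, Cdk2 by 1.10, Rbl2 by 0.91, Tfdp2 by 1.25, Trp53 by 0.52, Wee1 by 1.76, Pkmyt1 by 2.08, Atm by 0.92 and Rad21 by 0.92. In cohesin, securin and separase 13 of 17 were higher and none lower. The spread between libraries of D1 AP+PBS was wide, and the SD of Ccnb2 was 13.1 FPKM around a mean of 26.7 FPKM (n = 6).

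Among the inhibitors, Cdkn1b was higher by 1.62 (SE 0.11, adjusted p = 1.3e-11) and spanned 39.1 to 53.4 FPKM in D1 AP+PBS, with a median of 44.2 FPKM, against 11.9 to 16.4 FPKM in D0. The groups did not overlap. Cdkn2c was higher by 2.43 and Cdkn1c by 1.18. Cdkn1a spanned 103 to 202 FPKM with a median of 152 FPKM in D1 AP+PBS, below all D0 libraries at 333 to 499 FPKM, a difference of -1.45 (SE 0.22, adjusted p = 4.5e-06). Mdm2 was lower, at -0.89, and so was Gadd45g at -0.49, while Gadd45b was higher by 1.40. Ccnd1, the D cyclin that growth factors induce, was lower, at -1.61 (SE 0.20, adjusted p = 3.4e-07), at 12.6 to 22.2 FPKM in D1 AP+PBS with a median of 18.4 FPKM, and 70.8, 38.8, 60.3, 44.2 and 66.8 FPKM in D0. It ran against the mitotic genes and its groups did not overlap. The 14-3-3 genes Ywhag and Ywhae and the transducer Smad3 were lower, at -0.86, -0.52 and -0.87.

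Lymphocyte markers rose in this comparison too, with all 11 tested T and NK markers higher, and 8 of 10 B and plasma markers higher and 1 lower. Of 12 acinar markers 10 were higher, and of 7 tested neutrophil markers 6 were lower. Their summed FPKM was 129.4 to 408.6 for T and NK in D1 AP+PBS, against 10.95 to 46.79 in D0, and 289.8 to 1454 for B and plasma in D1 AP+PBS, against 180.6 to 253.1 in D0. With the lymphocyte covariate 31 of the 102 members that had passed kept their call and direction, and with the acinar covariate 67. In all 59 members passed under the lymphocyte covariate, 16 of them higher and 43 lower, against 1950 higher and 2830 lower among all 11960 genes. The lymphocyte level was 3.85 to 5.30 in D1 AP+PBS and 1.46 to 2.55 in D0, without overlap, so the lymphocyte fit extrapolates between the groups. Ccnb2 kept its call under both covariates, at 2.14 and 2.78, and so did Ccna2 at 1.35 and 2.45. Ccnb1, Cdk1, Cdc20, Plk1, Bub1b and Mcm7 were not among the 30 members that kept their call under both. Mcm2 to Mcm6 changed sign under the lymphocyte covariate, Mcm2 to -0.89. The part of other cells in the result beyond these fits was not tested. Among the smaller differences, the call for Pcna at 0.50 was lost without D1 AP+PBS 2 or 3 (adjusted p of 0.0514 and 0.0542), that for Cdkn2a at 0.43 without D0 2, 3 or 4 or D1 AP+PBS 3, 4 or 5, and that for Cdkn2d at -0.30 without D0 2, 3 or 4 or D1 AP+PBS 1, 4 or 5. Cdc14a lost its call without D0 2 or 4 or D1 AP+PBS 2, 3 or 5 (adjusted p of 0.0562 to 0.064), and Anapc13 without D0 1, 3 or 5 or D1 AP+PBS 1, 3, 4 or 6 (adjusted p of 0.0512 to 0.124).

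**Figure D3:**
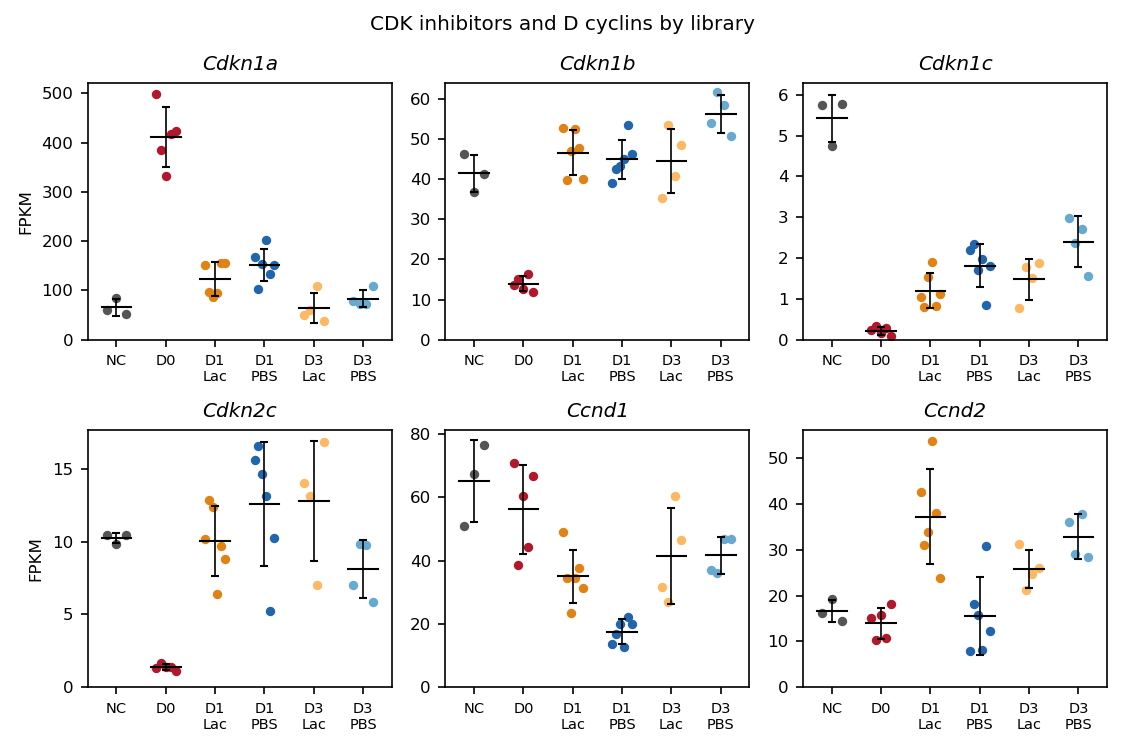
FPKM of the inhibitors Cdkn1a, Cdkn1b, Cdkn1c and Cdkn2c and of the D cyclins Ccnd1 and Ccnd2 in each of the 28 libraries by group, with NC at the left; points are libraries, the line is the group mean and bars are the SD. Cdkn1a is highest in D0 at 333 to 499 FPKM where the other 3 inhibitors are lowest, and Ccnd1 is lowest in D1 AP+PBS at 12.6 to 22.2 FPKM.

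Set against NC, few members differed at day 1 after PBS, and 4 of 143 were higher and 6 lower, against 5.29% and 9.18% of all genes. Cdkn1a stayed higher, by 1.20 (SE 0.26, adjusted p = 0.0018), with its lowest D1 AP+PBS library at 103 FPKM and its highest NC library at 84.6 FPKM. Gadd45b was higher by 1.15, Cdkn2d by 0.57 and Chek2 by 0.42, and the Cdkn2d call was lost without NC 3 (adjusted p = 0.0581). Ccnd1 was lower, at -1.84 (SE 0.24, adjusted p = 3.1e-06), at 12.6 to 22.2 FPKM in D1 AP+PBS and 51.0, 67.4 and 76.7 FPKM in NC. Cdkn1c, at 0.851 to 2.34 FPKM with a median of 1.88 FPKM in D1 AP+PBS, remained below all NC libraries and differed by -1.21 (SE 0.18, adjusted p = 2.3e-05). The D cyclin partner Cdk6 was lower, at -0.55, and the smaller differences were -0.22 for Cul1, -0.35 for E2f5 and -0.47 for Ppp2r5b. Without D1 AP+PBS 5, 16 members passed in place of 10. The split turned under other settings, to 17 higher and 4 lower with the acinar covariate, 14 and 5 with the replicate number as a block, and 10 and 5 under quantile normalization. Among all 11960 genes these settings gave 801 higher and 754 lower, 669 and 943, and 716 and 970, in the same order. The acinar level was 4.86 to 7.11 in D1 AP+PBS and 8.26 to 8.94 in NC, without overlap, so the acinar fit extrapolates between the groups. Of 12 acinar markers 9 were lower, with summed FPKM of 783.1 to 4182 in D1 AP+PBS and 5815 to 9366 in NC. The A and B cyclins, Cdk1, the spindle checkpoint genes and the helicase subunits did not pass this test, as for Ccnb2 at 0.92 (SE 0.40, adjusted p = 0.14) and Mcm7 at 0.13 (SE 0.34, adjusted p = 0.86).

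Between day 1 and day 3 after PBS the D cyclin genes Ccnd1 and Ccnd2 rose, while Ccnd3 did not pass the test at 0.10 (adjusted p = 0.68). At day 3, 20 of 143 members were higher and 8 lower, against 21.5% and 12.8% of all genes, or 34.3% in either direction, and the share of members that passed was 19.6%. Ccnd1 was at 37.0, 36.3, 46.7 and 46.9 FPKM in D3 AP+PBS, against 12.6 to 22.2 FPKM with a median of 18.4 FPKM in D1 AP+PBS, a difference of 1.22 (SE 0.22, adjusted p = 0.00028). Ccnd2 was at 36.1, 29.0, 37.9 and 28.4 FPKM in D3 AP+PBS, against 7.93 to 30.9 FPKM with a median of 13.9 FPKM in D1 AP+PBS, a difference of 1.17 (SE 0.26, adjusted p = 0.0019). The day 3 libraries of Ccnd1 all lay above those of day 1, while for Ccnd2 1 day 1 library reached into the day 3 range. The growth regulator Myc was higher by 1.11, Atm and Atr by 0.68 and 0.57, the phosphatase Cdc14a by 0.55, the Rb relative Rbl1 by 0.48 and the origin recognition gene Orc4 by 0.42.

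Lower at day 3 after PBS than at day 1 were Cdkn1a at -0.86 (SE 0.23, adjusted p = 0.0074), Gadd45b at -0.59, the anaphase-promoting complex subunits Anapc13 and Anapc2 at -0.58 and -0.37, E2f1 at -0.51 and Chek2 at -0.46. Cdkn1a was at 78.4, 71.9, 72.5 and 108 FPKM in D3 AP+PBS, against 103 to 202 FPKM in D1 AP+PBS, so 1 day 3 library lay within the day 1 range. The A and B cyclins, Cdk1, Cdc20, Plk1 and the helicase subunits did not pass the test in this comparison. The split depended on scaling: median-ratio scaling gave 9 members higher and 17 lower, and 1662 higher and 2186 lower among all 11960 genes. The number that passed was 17 without D3 AP+PBS 1, 18 without D1 AP+PBS 4 and 39 without D1 AP+PBS 5, and Rbl1 lost its call without D3 AP+PBS 1 (adjusted p = 0.0635). That of Gadd45b was lost without D1 AP+PBS 1, 3 or 4 or D3 AP+PBS 1, 3 or 4 (adjusted p of 0.0573 to 0.122).

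Markers of other cells moved with day 3 after PBS as well. Of the 11 tested T and NK markers 10 were higher and none lower, with summed FPKM of 530.1 to 720.5 in D3 AP+PBS, against 129.4 to 408.6 in D1 AP+PBS. All 7 dendritic markers were higher, with sums of 270.2 to 338.7 in D3 AP+PBS and 104 to 187.2 in D1 AP+PBS. Of 12 acinar markers 8 were higher, while 9 of 10 macrophage markers were lower and none of the 10 B and plasma markers passed. With the lymphocyte covariate 7 members were higher and 27 lower, against 1381 and 1424 of all 11960 genes, and 13 of the 28 members that had passed kept their call and direction. Those 13 included Ccnd1 at 1.34 and Ccnd2 at 0.97, and Chek2, E2f1 and Gadd45b at -0.48, -0.58 and -0.70. With the acinar covariate 11 were higher and 11 lower, against 1685 and 1407 of all genes. Their part in the result beyond these fits was not tested.

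Day 3 after PBS against NC gave 10 members higher and 4 lower, against 10.3% and 10.9% of all genes. Cdkn1c was still low, at 2.98, 2.36, 2.71 and 1.56 FPKM in D3 AP+PBS and 5.74, 4.75 and 5.78 FPKM in NC, a difference of -0.93 (SE 0.19, adjusted p = 0.0012) with no overlap. Ppp2r5b, a regulatory subunit of protein phosphatase 2A, differed by -0.69 and Anapc2 by -0.45, and Rbl1 was higher by 0.64. These 4 calls held when any 1 library was left out. Those of Gadd45a at 0.98, Ccnd2 at 0.94, Cdt1 at 0.69, Atm at 0.65, Cdkn2d at 0.48, Cdkn1b at 0.43, Mdm2 at 0.25 and E2f1 at -0.39 were each lost without at least 1 library, among them NC 3 for all 8 (adjusted p of 0.0792 to 0.16). The number that passed was 4 without NC 3, 5 without NC 1, 7 without NC 2, 8 without D3 AP+PBS 2 and 9 without D3 AP+PBS 1. Cdkn1a no longer passed, at 0.34 (SE 0.28, adjusted p = 0.39). Median-ratio scaling gave 3 higher and 7 lower, and 759 higher and 1590 lower among all genes. Of the 11 tested T and NK markers 10 were higher in D3 AP+PBS, with summed FPKM of 530.1 to 720.5 in D3 AP+PBS and 117.2 to 197.3 in NC. Of 7 dendritic markers 4 were higher, of 7 fibroblast and stellate markers 4 were higher, and of 10 macrophage markers 8 were lower. With the lymphocyte covariate 1 member was higher and 9 were lower, against 762 and 1398 of all genes. The D3 AP+PBS and NC libraries do not overlap in the lymphocyte level, so that fit extrapolates between the groups. None of the 10 higher calls was kept in that fit, Rbl1 included, and the 4 calls that were kept were those of Cdkn1c, Ppp2r5b, Anapc2 and E2f1, all lower.

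With lactate at day 1 the D cyclins Ccnd1 and Ccnd2 were higher than with PBS. In all, 5 of 143 members were higher and 1 lower in D1 AP+Lac than in D1 AP+PBS, against 5.16% and 4.56% of all genes, or 9.72% in either direction. Ccnd2 spanned 23.8 to 53.8 FPKM with a median of 35.9 FPKM in D1 AP+Lac, against 7.93 to 30.9 FPKM with a median of 13.9 FPKM in D1 AP+PBS, a difference of 1.31 (SE 0.23, adjusted p = 0.0075). Ccnd1 spanned 23.3 to 49.0 FPKM with a median of 34.4 FPKM in D1 AP+Lac, against 12.6 to 22.2 FPKM with a median of 18.4 FPKM in D1 AP+PBS, a difference of 0.95 (SE 0.19, adjusted p = 0.0095). All lactate libraries were above all PBS libraries for Ccnd1, and the groups touched for Ccnd2.

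Rbl1, which encodes the Rb relative p107, spanned 11 to 17.5 FPKM with a median of 16.6 FPKM in D1 AP+Lac, against 7.38 to 13.7 FPKM with a median of 8.96 FPKM in D1 AP+PBS, a difference of 0.65 (SE 0.14, adjusted p = 0.0098). E2f1 was lower, at -0.37 (SE 0.09, adjusted p = 0.016), at 7.71 to 11.6 FPKM with a median of 10.4 FPKM in D1 AP+Lac and 10.7 to 15.1 FPKM with a median of 13.6 FPKM in D1 AP+PBS. Both pairs of groups overlapped in part. Atm and Cdc14a were higher by 0.56 and 0.36. The calls for E2f1 and Cdc14a were lost without D1 AP+PBS 1 or D1 AP+PBS 4, with adjusted p of 0.0586 and 0.0597 for E2f1 and 0.062 and 0.0597 for Cdc14a, and that of Atm without D1 AP+Lac 1, 2, 3 or 4 or D1 AP+PBS 1, 3, 4 or 6 (adjusted p of 0.0503 to 0.126). The number that passed was 3 without D1 AP+PBS 1 or D1 AP+PBS 4, 13 without D1 AP+PBS 5 and 15 without D1 AP+Lac 6. In a limma fit of these 2 groups alone 0 members passed, and 15 of 143 had an unadjusted p under 0.05. Of all 11960 genes 0 passed in that fit, and 2282 had an unadjusted p under 0.05.

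The mitotic and replication genes did not pass the test at day 1: Ccnb2 differed by -0.04 (SE 0.33, adjusted p = 0.96), Cdc20 by -0.10, Plk1 by 0.00 and Mcm7 by 0.21, and the medians were 0.03 for A and B cyclins with Cdk1 and 0.20 for licensing. Of 11 tested T and NK markers 4 were higher and of 7 dendritic markers 4 were higher with lactate, while 4 of 10 macrophage markers were lower and none of the B and plasma markers passed. With the lymphocyte level as a covariate 5 of the 6 calls were kept, and with the acinar level 6 of 6.

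Lactate at day 3 gave 0 members that passed in limma, higher or lower, against 0.192% and 0.184% of all genes. At an unadjusted p under 0.05 there were 36 of 143 members, or 25.2%, against 2144 of all 11960 genes, or 17.9%. The median log2 fold change was 0.14 over the members and 0.02 over all genes. By role the medians were 0.85 for A and B cyclins with Cdk1, 0.60 for the spindle checkpoint, 0.42 for licensing, 0.27 for damage checkpoint and mitotic entry and -0.34 for the kinase inhibitors. All 11 tested spindle checkpoint genes and 19 of 20 licensing genes had a positive value, and 7 and 1 of them an unadjusted p under 0.05. The signs are not independent. Of the 35 genes of these roles and of A and B cyclins with Cdk1, 26 were highest in D3 AP+Lac 4 and 31 lowest in D3 AP+Lac 3, within that group.

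Cdc20 was at 47.3, 31.8, 16.8 and 60.9 FPKM in D3 AP+Lac, against 10.4, 22.7, 22.7 and 11.9 FPKM in D3 AP+PBS, a difference of 1.10 (SE 0.50, adjusted p = 0.25). Ccnb2 was at 38.2, 30.4, 15.9 and 44.1 FPKM in D3 AP+Lac, against 10.7, 21.5, 17.6 and 11.9 FPKM in D3 AP+PBS, a difference of 0.97 (SE 0.40, adjusted p = 0.21). In both genes D3 AP+Lac 3 lay within the PBS range and the other lactate libraries above it. Espl1 was at 13.6, 9.98, 6.77 and 12.9 FPKM in D3 AP+Lac and 4.50, 6.04, 7.67 and 4.63 FPKM in D3 AP+PBS, a difference of 0.80 (adjusted p = 0.087) with the same library low.

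The member with the smallest p was Gadd45g, at 8.40, 8.91, 8.69 and 6.85 FPKM in D3 AP+Lac, against 11.4, 16.0, 14.3 and 12.3 FPKM in D3 AP+PBS, a difference of -0.65 (SE 0.17, adjusted p = 0.073). Its groups did not overlap. Ppp2r5b differed by 0.39 (adjusted p = 0.097) and Cdkn2b by -0.82 (adjusted p = 0.19), also without overlap. Outside the set, none of the 28 spindle and cytokinesis genes and none of the 22 synthesis genes passed, with medians of 0.84 and 0.41, and Hmmr, a spindle protein, differed by 1.12 (adjusted p = 0.125). Of the 10 B and plasma markers 1 was higher, and their summed FPKM was 919.5 to 2581 in D3 AP+Lac and 642.7 to 1020 in D3 AP+PBS. None of the T and NK markers passed. With the acinar covariate 12 members passed, all higher, against 325 higher and 298 lower among all 11960 genes. With the lymphocyte covariate 2 members were higher and 2 lower, against 198 and 303 of all genes, and without D3 AP+Lac 3 or D3 AP+PBS 3, 1 member passed.

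**Figure D4:**
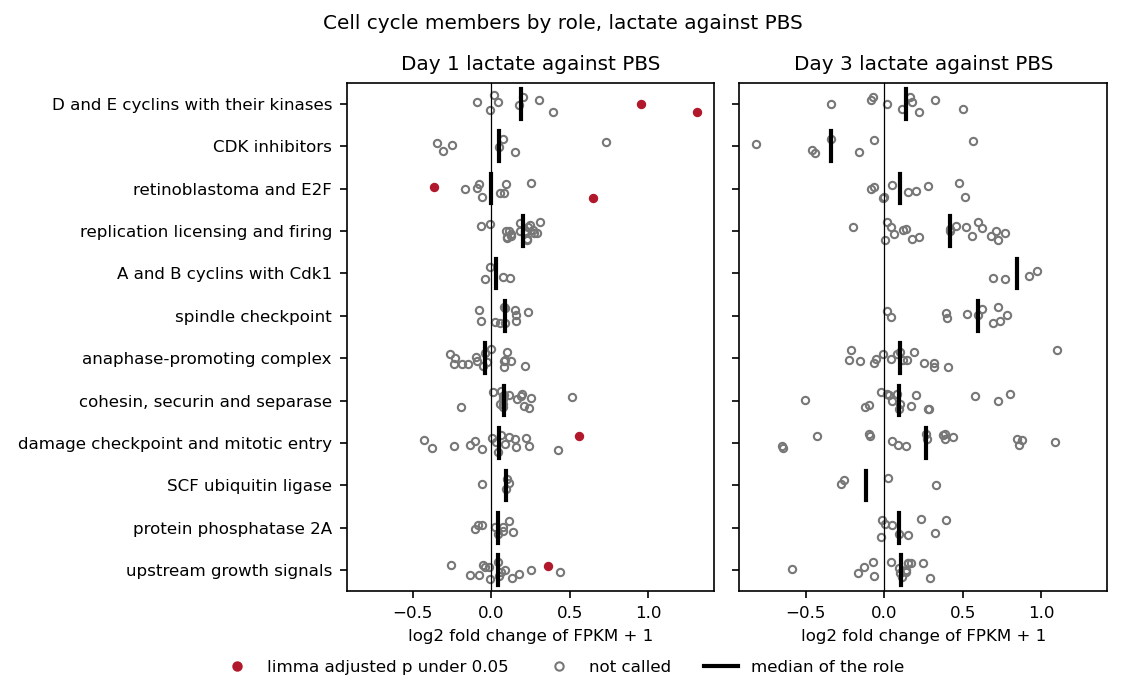
Log2 fold change of each tested member by role for lactate against PBS, at day 1 and at day 3; filled red points passed the test, open points did not, and the bar is the role's median. At day 1 the 6 filled points stand apart from role medians near 0, and at day 3 no point is filled while the median of A and B cyclins with Cdk1 lies at 0.85.

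The lactate effect at day 3 minus that at day 1 was tested as an interaction. Of 143 members 5 were higher and 7 lower, against 4.76% and 5.94% of all genes. Ccnd2 differed most, by -1.65 (SE 0.37, adjusted p = 0.0086), with D3 AP+Lac at 31.3, 21.3, 24.7 and 26.0 FPKM and D3 AP+PBS at 36.1, 29.0, 37.9 and 28.4 FPKM, the reverse order of day 1. Cdkn2b, an INK4 inhibitor, differed by -1.55 (SE 0.42, adjusted p = 0.021). It was at 1.00, 0.889, 0.799 and 1.20 FPKM in D3 AP+Lac and 3.15, 2.90, 2.43 and 1.60 FPKM in D3 AP+PBS. At day 1 it was at 0.883 to 4.74 FPKM with a median of 2.92 FPKM in D1 AP+Lac and 0.310 to 4.22 FPKM with a median of 0.961 FPKM in D1 AP+PBS. All lactate libraries were below all PBS libraries at day 3, and the groups overlapped at day 1 with the higher median under lactate.

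E2f1 went the other way, by 0.65 (SE 0.15, adjusted p = 0.0092), with 11.1, 11.5, 9.89 and 12.2 FPKM in D3 AP+Lac against 8.21, 9.94, 8.90 and 9.13 FPKM in D3 AP+PBS, and Anapc2 did so by 0.56 (SE 0.14, adjusted p = 0.014). These 4 genes kept their call without any 1 library. The remaining 8 lost it without some library, and were Ccnd1 at -1.02, Pttg1 at -1.02, Gadd45g at -0.74, Rbl1 at -0.71, Orc4 at -0.47, Chek2 at 0.41, Ppp2r5b at 0.48 and Espl1 at 0.99. The number that passed was 6 without D1 AP+PBS 1, D1 AP+PBS 4 or D3 AP+Lac 2, 7 without D3 AP+Lac 1 or D3 AP+PBS 2, and 19 without D1 AP+PBS 5. Of the A and B cyclins, Cdk1 and the helicase subunits none passed, as for Ccnb2 at 1.01 (SE 0.52, adjusted p = 0.21). All 12 calls were kept with the lymphocyte covariate and 10 with the acinar one. The lymphocyte covariate is 1 mean over T, NK, B and plasma markers. Here the medians were -1.11 for T and NK and 0.985 for B and plasma markers, so it cannot adjust for either alone. In the same comparison 5 of 11 T and NK markers were lower, and 3 of 10 B and plasma and 4 of 10 macrophage markers were higher.

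Within the day 1 groups and D3 AP+Lac, 1 library was the highest for most mitotic and licensing genes, and this was less so in NC and D3 AP+PBS. Over the 35 tested genes of A and B cyclins with Cdk1, spindle checkpoint and licensing, D1 AP+PBS 2 was the highest library of its group for 32 genes, D1 AP+Lac 3 for 32 and D3 AP+Lac 4 for 26. D0 1 was the highest for 21, while the highest library was D3 AP+PBS 2 for 19 and D3 AP+PBS 3 for 13, and NC 1, 2 and 3 for 17, 12 and 6. D3 AP+Lac 3 was the lowest for 31, D1 AP+Lac 6 for 26, D3 AP+PBS 1 for 22, D1 AP+PBS 5 for 19, NC 3 for 18 and D0 5 for 17. D1 AP+PBS 2, D1 AP+Lac 3 and D3 AP+Lac 4 also had the highest lymphocyte marker level of their groups, at 5.30, 5.76 and 5.97. D3 AP+Lac 3 and D1 AP+Lac 6 had the lowest, at 5.12 and 3.95. The order differed elsewhere, with D0 1 at 2.31 below D0 4 at 2.55, D1 AP+PBS 5 at 4.62 above D1 AP+PBS 6 at 3.85, and D3 AP+PBS 1 at 5.41 above D3 AP+PBS 4 at 5.07. What share of this spread came from lymphocytes was not tested. The mean level of the 35 genes on the log2(FPKM + 1) scale was 2.97 to 3.03 in NC, 1.87 to 2.09 in D0, 2.75 to 4.10 in D1 AP+Lac, 2.70 to 3.87 in D1 AP+PBS, 3.29 to 4.16 in D3 AP+Lac and 3.14 to 3.53 in D3 AP+PBS. The D0 libraries were the lowest of all and lay close together, and the NC libraries lay closer still.

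**Figure D5:**
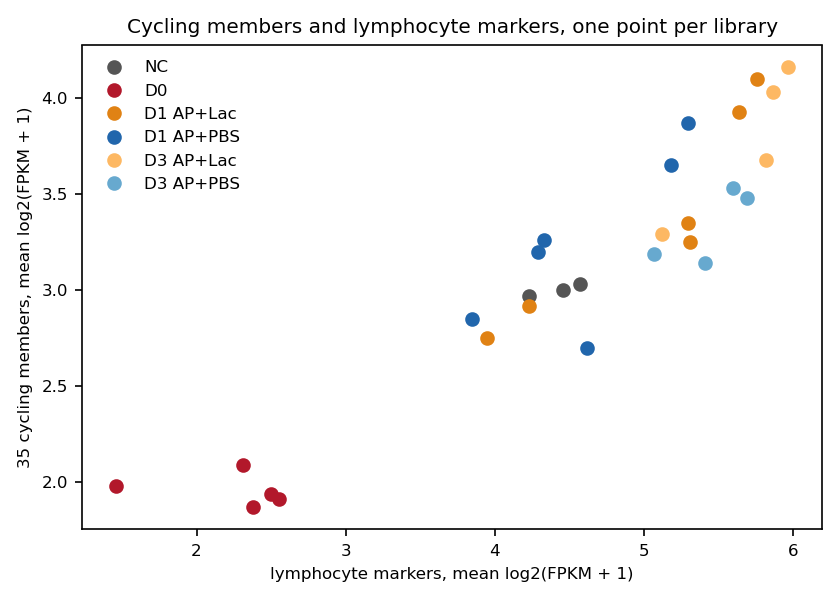
Mean log2(FPKM + 1) of the 35 tested genes of A and B cyclins with Cdk1, spindle checkpoint and licensing against the mean of 21 lymphocyte markers, 1 point per library, coloured by group. The D0 libraries stand alone at 1.46 to 2.55 in lymphocyte markers and 1.87 to 2.09 in cycle genes, and the other groups spread from 2.70 to 4.16 in cycle genes.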

How the data were processed

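The deposited table gave FPKM per gene for 28 libraries of sorted pancreatic macrophages, computed by the authors from fragments per gene, gene length and library size. Library input was 10 ng of total RNA, per the labels' protocols. Of the tools, fastp and R 3.2.0 are named in the submitters' processing notes, whereas an aligner, a counter, a build or a strand setting is not given in the sources used here, so overlapping and antisense genes and near-identical copies cannot be told apart.

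FPKM values are relative within a library. Whole-fragment steps were recovered for 100% of genes within a tolerance of 0.0001, giving 33273303 to 41060490 fragments per library, and no pair of libraries was a duplicate. Genes with at least 1 FPKM in at least 3 libraries (11960) were fitted as log2(FPKM + 1) with limma 3.58.1 in R 4.3.3, with 1 mean for each of the 6 groups, trended and robust empirical Bayes, and Benjamini-Hochberg adjustment over these genes at 0.05. All groups shared 1 estimate of the spread. The same fit was also run on simulated data with 200 genes changed, far fewer than passed for D0 against NC. Tables and plots used Python 3.11.15, numpy 2.4.6, pandas 2.3.3 and matplotlib 3.10.9. Promoter windows came from RefSeq in build GRCm38.p6 and were matched by NCBI gene identifier.

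Comparisons that share a group (D0, NC or PBS libraries) are not independent. Named genes were the largest changes per comparison, the smallest p per role, a set of standard cycle genes and up to 4 genes per further list. The members, roles, lists and this rule were chosen with earlier results of these data known, and the roles of 12 members were filled in after the member list was seen. Genes in other sentences (Rad21, Smad4, Ywhae and the like) were chosen after their values were seen. Alternatives tried were another pseudocount, other filters, quantile and median-ratio scaling, lymphocyte and acinar covariates, a replicate block, the compared groups alone and leaving out each library. The main fit did not pair libraries by replicate number.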

Additional observations from a re-analysis of the deposited data

Results flagged for a closer look

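For 12 members the lactate effect at day 3 differed from that at day 1 by the test of the difference itself in limma. On the log2(FPKM + 1) scale the difference was -1.65 for Ccnd2, -1.55 for Cdkn2b, -1.02 for Ccnd1, -1.02 for Pttg1, -0.74 for Gadd45g, -0.71 for Rbl1 and -0.47 for Orc4, and 0.41 for Chek2, 0.48 for Ppp2r5b, 0.56 for Anapc2, 0.65 for E2f1 and 0.99 for Espl1. Leaving out 1 library ended the call of Ccnd1 (without D1 AP+Lac 1, D1 AP+PBS 1 or 4, D3 AP+Lac 1 or 2, or D3 AP+PBS 3 or 4), of Rbl1 (without D1 AP+Lac 1, 3 or 4, D1 AP+PBS 1, 4 or 6, D3 AP+Lac 2 or D3 AP+PBS 1), of Pttg1 (without D1 AP+PBS 1 or 4, D3 AP+Lac 1 or 2, or D3 AP+PBS 1, 2 or 4), of Gadd45g (without D3 AP+Lac 4 or D3 AP+PBS 2, adjusted p = 0.0599 and 0.0669) and of Espl1 (without D3 AP+Lac 1 or D3 AP+PBS 1, adjusted p = 0.0533 and 0.0578). Orc4 lost its call without any of 10 libraries, Chek2 without any of 13 and Ppp2r5b without any of 8.

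Single libraries stood apart from the rest of their group in 11 of 370 combinations of 74 genes and a group. Chance gives about 1 in 20. In D0 1, Plk1 was at 1.54 FPKM with the next library at 0.751, Cdc6 at 0.844 with the next at 0.609 and Cdt1 at 14.2 with the next at 10.3. In D0 3, Bub1 was at 0.569 FPKM with the next at 0.262 and Orc4 at 4.16 with the next at 3.37, while Myc was the lowest at 7.28 with the next at 12.0 and Anapc13 the lowest at 12.0 with the next at 15.2. Cdkn2b was at 4.22 FPKM in D1 AP+PBS 5 with the next at 1.59, and Pttg1 at 19.6 FPKM in D1 AP+Lac 5 with the next at 11.7. In D3 AP+PBS 4 Tfdp2 was the lowest at 1.38 FPKM with the next at 2.02, and in D3 AP+PBS 3 Smad3 was at 10.7 FPKM with the next at 8.54.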

How the results depend on the processing

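The limits are few libraries per group, FPKM as a relative unit, RNA of other cells in the sort and no label that ties libraries to animals. Another pseudocount and the stricter filter kept every count of members within 1.5 times. The lymphocyte covariate gave 47 members for D0 against NC (38 higher and 9 lower), 19 for D1 AP+PBS against NC, 59 for D1 AP+PBS against D0 (16 higher and 43 lower), 4 for lactate at day 3 and 25 for the lactate effect at day 3 minus day 1. The acinar covariate gave 20 for D0 against NC, 21 for D1 AP+PBS against NC and 12 for lactate at day 3. Without the filter on low values 6 passed for D3 AP+PBS against NC and 5 for the difference of lactate effects. The compared groups alone gave 17 for D3 against D1 after PBS, 25 for D3 AP+PBS against NC, 0 for lactate at day 1 and 3 for the difference of lactate effects. For lactate at day 1 that fit called 0 of all 11960 genes too. Quantile and median-ratio scaling gave 2 each for lactate at day 3. Under quantile normalization the split of higher and lower was 22 and 50 for D0 against NC, 65 and 28 for D1 AP+PBS against D0, 16 and 13 for D3 against D1 after PBS, and 6 and 10 for D3 AP+PBS against NC. Among all genes it was 3558 and 2755, 2835 and 3666, 1771 and 2185, and 1154 and 1710, in the same order. The cause of each shift was not tested.

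The replicate number as a block gave 19 members for D1 AP+PBS against NC and 1 for lactate at day 3, and kept the other counts within 1.5 times. By the median, same-numbered libraries did not deviate together more than others (correlation over 0.1 in 20 of 59 pairs, median -0.0175, highest 0.61, against a median of 0.00725 over 264 other pairs). Correlations over all tested genes cannot tell whether the numbers mark a shared batch or day for some libraries.

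Leaving out 1 library gave 79 to 93 members for D0 against NC, 7 to 16 for D1 AP+PBS against NC, 96 to 103 for D1 AP+PBS against D0, 17 to 39 for D3 against D1 after PBS, 4 to 11 for D3 AP+PBS against NC, 3 to 15 for lactate at day 1, 0 to 1 for lactate at day 3 and 6 to 19 for the difference of lactate effects. No named gene that had passed changed sign when a library was left out.

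Genes that had passed changed sign in D0 against NC with the lymphocyte covariate, to 0.776 for Mcm2, 0.474 for Mcm3, 0.649 for Mcm4, 0.56 for Mcm5, 0.0194 for Mcm6, 0.634 for Cdc6, 0.856 for Cdc45, 0.346 for Ccne1, 0.173 for Ccne2, 0.315 for Trp53, 0.336 for Chek1 and 0.87 for Myc. With the acinar covariate it was 0.107 for Cdc6, 0.367 for Cdc45 and 0.0278 for Chek1, and under quantile normalization 0.155 for Chek2. In D1 AP+PBS against D0 the lymphocyte covariate gave -0.886 for Mcm2, -0.62 for Mcm3, -0.592 for Mcm4, -0.543 for Mcm5, -0.188 for Mcm6, -0.595 for Cdc6, -0.681 for Cdc45, -0.671 for Pcna, -0.158 for Ccne1, -0.288 for Ccne2, -0.52 for Trp53, -0.418 for Chek1, -0.114 for Cdc14a and -0.0826 for Atr. Quantile normalization gave -0.0192 for Cdkn2a, -0.201 for Cdc14a and -0.05 for Atr.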
